A study of Mus musculus with 2 samples.

Results

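Activin and SMAD signalling genes were followed in MIN6, a mouse insulinoma line that makes and secretes insulin and stands in for beta cells. Of 10 named genes, 9 had a row among the 30868 listed features, and follistatin (Fst) was not analysed here. Inhba was chosen by its RPKM, which was higher in the treated library, and the others because they encode its sister subunit, receptors, inhibitors and signal carriers. The HGP and NGP values of Inhba are therefore given as a description only. RNA-seq was made from 2 MIN6 libraries. HGP is labelled high glucose and palmitate, with a medium that held 0.5% bovine serum albumin, palmitate at 0.4 mmol/l and glucose at 33.3 mmol/l, and NGP is labelled normal. Both sample records carry the same treatment text, so what the NGP cells were grown in, palmitate included, cannot be read from the labels. The study asks how lactate dehydrogenase A and histone lactylation bear on beta cells under toxic glucose.

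Activins are secreted dimers of inhibin beta subunits. They bind a type II receptor, which then activates a type I receptor, and this one phosphorylates the receptor SMADs. These join the common SMAD, enter the nucleus and change transcription, while inhibitory SMADs, SKI-type repressors and follistatin damp the signal. In islets the pathway is known for its effects on insulin secretion and on the maturity of beta cells.

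The HGP library held 43727919 reads on listed features and the NGP library 44149406. Values are RPKM, reads scaled to feature length and to the library's total, so levels can be set side by side between genes. With 1 library per group no difference below has a replicate check. Brackets hold exact 95% intervals of the HGP over NGP ratio, which reflect the number of reads alone and describe the libraries rather than the treatment. Of features with 1 to 20 reads, 76.6% had an even count in HGP and 75.9% in NGP, as would be seen if both mates of a read pair were counted. Intervals from halved counts are therefore named where they change a statement. The MIN6 label was checked against 14 beta cell markers, which were all measured, with Iapp at 4692 RPKM in HGP and 4664 in NGP and Ins2 at 725.4 in HGP and 1197 in NGP. Fibroblast and stellate, endothelial and acinar markers were low, but ductal and macrophage markers were not all low. The ductal marker Krt7 stood above Skil, the highest of the listed activin and SMAD genes, in both libraries. The macrophage marker C1qa stood above Inhba in NGP and below it in HGP. The 7 listed fibroblast and stellate markers summed to 0.572 RPKM in HGP and 0.545 in NGP, with Postn at 0 in both. The 6 endothelial markers summed to 0.219 RPKM in HGP and 0.181 in NGP, with Kdr at 0 in both, and the 2 listed acinar markers to 0.129 in HGP and 0.118 in NGP. The 6 ductal markers summed to 19.2 RPKM in HGP and 16.9 in NGP, most of it from Krt7 with a ratio of 1.11, while Krt19 was at 0 in both. The 7 macrophage markers summed to 7.41 in HGP and 9.38 in NGP, with C1qa at 3.87 in HGP and 7.19 in NGP, Cd68 at 2.02 in HGP and 0.901 in NGP, and Adgre1 at 0 reads in HGP and 2 in NGP.

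Of the 9 listed genes, 7 reached a mean of 1 RPKM over the libraries, the level above which features are called measured here. Only Inhba among these 7 was at least 1.5-fold higher in HGP on the scale of log2(RPKM + 0.5), and none was lower by that much. Over all 13947 measured features, 1.74% were that much higher and 1.48% that much lower. Inhba's call is the choice of the gene itself and nothing is read from it. Intervals lay above a ratio of 1 for Inhba and Skil and below it for Smad3, against 22.0% and 22.3% of all measured features. The median log2 ratio of the 7 measured genes was 0.012, and that of all measured features was 0.0028. With halved counts the interval of Smad3 included 1, and 2106 of all measured features had intervals above 1 and 2170 below.

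**Figure D1:**
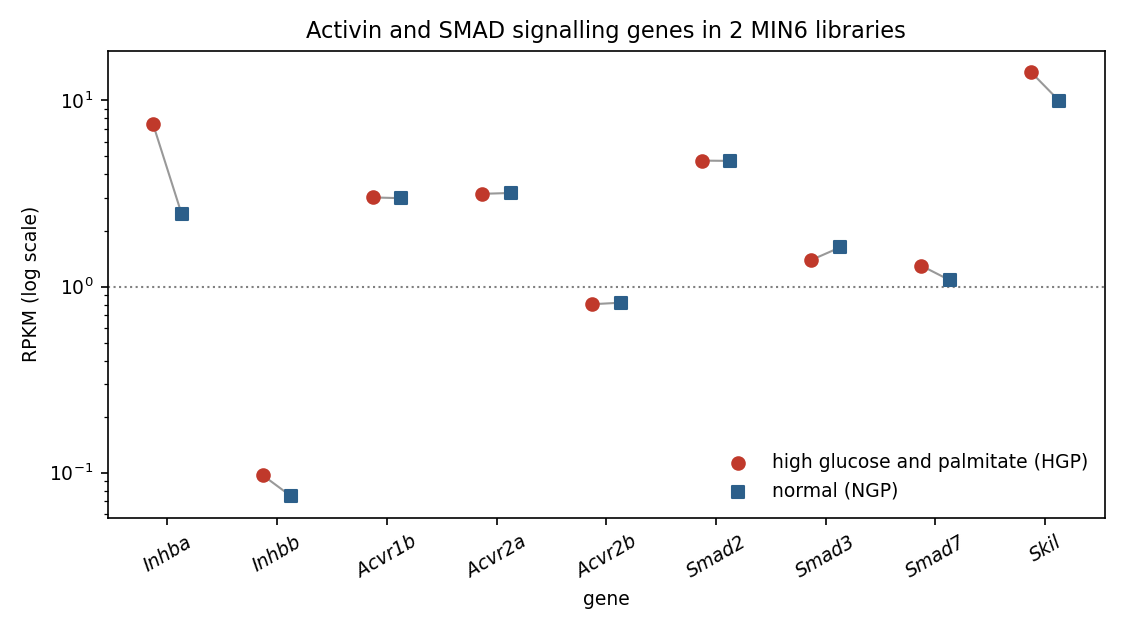
RPKM on a log axis for the 9 listed genes, with HGP as circles on the left of each pair and NGP as squares on the right; 1 library each, and the dotted line marks 1 RPKM. Inhba stands at 7.44 in HGP and 2.45 in NGP and Skil at 14.2 in HGP and 9.92 in NGP, while the 3 receptor genes and Smad2 are almost level.

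Inhba encodes the beta A subunit, which pairs with itself to form activin A. It stood at 7.44 RPKM in HGP, from 2079 reads, and at 2.45 RPKM in NGP, from 692 reads. The HGP value was the higher, by a ratio of 3.03 (2.78 to 3.31), or 2.68 to 3.43 with halved counts. On the log2(RPKM + 0.5) scale the difference was 1.43, which placed Inhba at rank 26 from the top of the 13947 measured features. Among the 10817 of these with an assigned symbol and at least 300 bases it ranked 4 from the top. In the table (GRCm39) it spans bases 16186436 to 16206206 of chromosome 13, plus strand, with 5 exon segments of 6390 bases in all. No exon of another listed feature overlaps it on either strand. Over 2 libraries the likeness of another gene to Inhba comes down to how close its log2 ratio is. Near genes with an assigned symbol and at least 300 bases were Arrdc4, an alpha-arrestin gene, which lay 0.11 below Inhba, and the small nuclear RNA gene Rn7sk, 0.18 below it with 38 reads in HGP and 12 in NGP. The G protein regulator gene Rgs16 was 0.25 below, and its exons overlap Gm28513 on the opposite strand.

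The other subunit genes were lower than Inhba in both libraries. Inhbb encodes the beta B subunit of activin B. It had 18 reads in HGP and 14 in NGP, or 0.0967 RPKM in HGP and 0.0745 in NGP, and its ratio of 1.30 (0.610 to 2.82) leaves the direction unresolved at this depth. Inha encodes the alpha subunit, which pairs with a beta subunit to form inhibin, an antagonist of activin. It stood at 2.16 RPKM in HGP and 1.46 in NGP, a ratio of 1.48 (1.13 to 1.94), which was 1.01 to 2.20 with halved counts. The HGP value of Inha was the higher. Inhba made up 77.5% of the summed RPKM of Inhba and Inha in HGP and 62.7% in NGP. The ratio of Inhba to Inha was 3.45 in HGP and 1.68 in NGP. These shares and ratios rest on the values by which Inhba was chosen and are given as a description. Inhbe and Inhbc encode subunits found mainly in liver. Inhbe stood at 0.292 RPKM in HGP, from 68 reads, and at 0.119 in NGP, from 28 reads. Its ratio was 2.45 (1.56 to 3.96), or 1.28 to 4.95 with halved counts. Inhbc had 2 reads in HGP and 0 in NGP.

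The upstream sequences of Inhba and Inhbb are shown because these genes encode the alternative beta subunits of activin and yet stood far apart in level. They are the 250 bases before the RefSeq start (build GRCm38.p6), Inhba at chr13:16011601-16011850 on the plus strand and Inhbb at chr1:119422249-119422498 on the minus strand, written 5′ to 3′ with the last base next to the start. Capitals mark matches on either strand to any of 5 motifs, none of which contains another. These were TATAAA, the core of the TATA box; TGACG, part of the cyclic AMP response element; TGANTCA, the AP-1 element; CAGAC, a SMAD-binding element; and CACGTG, an E-box.
Inhba: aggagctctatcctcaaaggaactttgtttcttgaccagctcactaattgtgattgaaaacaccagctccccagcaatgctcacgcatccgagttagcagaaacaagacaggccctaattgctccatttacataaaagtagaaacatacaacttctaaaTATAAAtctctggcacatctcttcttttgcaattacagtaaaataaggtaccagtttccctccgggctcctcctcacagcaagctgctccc
Inhbb: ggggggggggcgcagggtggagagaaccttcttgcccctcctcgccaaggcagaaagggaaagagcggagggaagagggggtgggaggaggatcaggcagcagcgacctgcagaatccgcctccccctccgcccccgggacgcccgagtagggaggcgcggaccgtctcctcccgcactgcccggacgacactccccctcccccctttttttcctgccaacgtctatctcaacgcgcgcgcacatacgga
Inhba held 1 match, a TATAAA whose first base lies at position -91 from the start, and Inhbb held none. Among all 32851 RefSeq promoters, windows of this length held TATAAA in 12.4%, TGACG in 17.8%, TGANTCA in 6.75%, CAGAC in 42.2% and CACGTG in 6.02%. A match is a string of letters and not a bound site. The Inhba window was 43.2% G+C, with 19.0% of promoters lower, whereas the Inhbb window was 68.0% G+C, with 87.8% lower. The promoter table held 6 of the 10 named genes, and among these Inhba alone lay below the median promoter of 52.4% G+C. The others were Smad3 at 69.2%, Acvr2b at 72.8%, Acvr1b at 78.8% and Acvr2a at 82.0%, beside Inhbb. A CAGAC match was found in the windows of Acvr2a and Acvr2b and a CACGTG match in that of Acvr1b.

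The activin receptor genes among the listed genes were nearly level between the libraries. Acvr2a and Acvr2b encode the type II receptors that bind the ligand. Acvr2a stood at 3.15 RPKM in HGP and 3.18 in NGP, a ratio of 0.989 (0.895 to 1.09). Acvr2b was below the 1 RPKM line, at 0.803 RPKM in HGP and 0.819 in NGP, a ratio of 0.981 (0.771 to 1.25). Acvr2b made up 20.3% of the summed RPKM of this pair in HGP and 20.5% in NGP, and the ratio of the type II genes to each other differed by 0.992 (0.763 to 1.29). Acvr1b encodes ALK4, the type I receptor for activin A. It had 582 reads in each library, or 3.01 RPKM in HGP and 2.98 in NGP, a ratio of 1.01 (0.898 to 1.13). The widest of these intervals was that of Acvr2b, which had the fewest reads of the 3 receptor genes. The 3′ end of Acvr2a overlaps Orc4 on the opposite strand, which stood at 9.87 RPKM in HGP and 9.30 in NGP.

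Acvr1c, the gene of the type I receptor ALK7, was lower in HGP. ALK7 is found in islets and fat and serves activin B, nodal and related ligands. Acvr1c stood at 0.792 RPKM in HGP, from 322 reads, and at 1.94 RPKM in NGP, from 794 reads. The HGP value was the lower, by a ratio of 0.409 (0.359 to 0.467), or 0.339 to 0.493 with halved counts. It ranked 62 from the bottom of the 13947 measured features, and 12 from the bottom of the 10817 with an assigned symbol and at least 300 bases. Acvr1c made up 20.8% of the summed RPKM of Acvr1c and Acvr1b in HGP and 39.3% in NGP, and the ratio of Acvr1c to Acvr1b differed by 0.406 (0.340 to 0.484). The summed level of both type I genes was 3.81 RPKM in HGP and 4.92 in NGP. An exon of Gm13544 on the opposite strand overlaps Acvr1c, and Gm13544 had 12 reads in HGP and 24 in NGP. The strand setting is not known, so reads of the shared bases cannot be assigned. The part of this overlap in the Acvr1c value was not tested. In a bulk library a smaller share of cells with the transcript and less of it per cell cannot be told apart. Several beta cell markers were also lower in HGP. Of the 14, 9 had intervals below 1 and 1 above it, beside 22.3% below and 22.0% above among all measured features. Their median log2 ratio was -0.26, against 0.0028 for all measured features. The part of such a shift in the Acvr1c value was not tested.

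**Figure D2:**
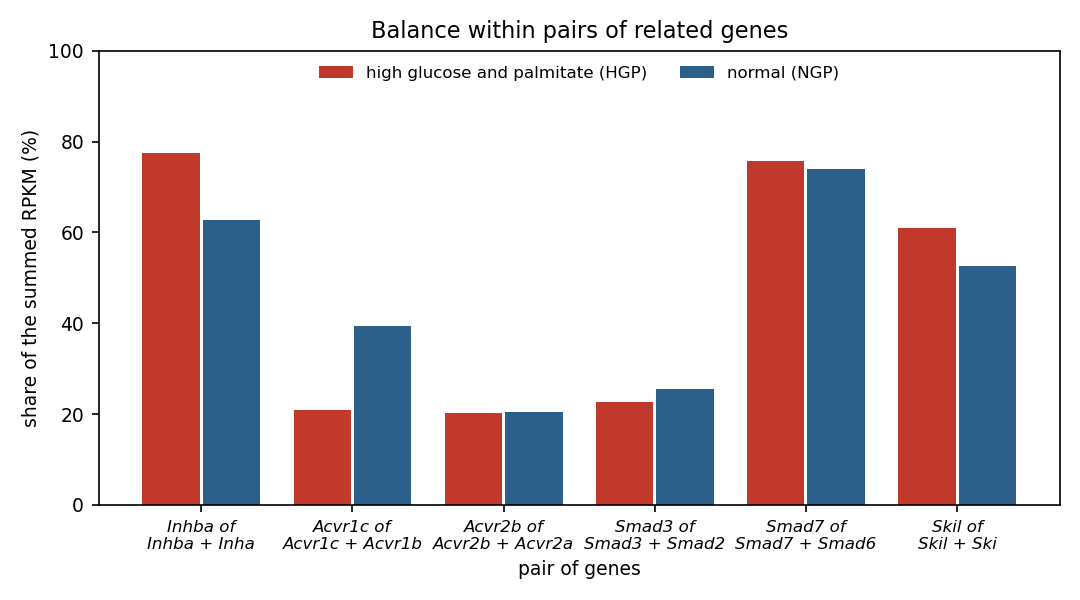
Share of the first gene in the summed RPKM of a pair, in percent from 0 to 100, with HGP bars on the left and NGP bars on the right; 1 library each, so no error bars. The Acvr1c bar is 20.8% in HGP and 39.3% in NGP, the Inhba bar 77.5% in HGP and 62.7% in NGP, and the Acvr2b bars stand at 20.3% in HGP and 20.5% in NGP.

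The SMAD genes that carry the activin signal were close to level. Smad2, a receptor SMAD, stood at 4.75 RPKM in HGP and 4.73 in NGP, a ratio of 1.00 (0.940 to 1.07). Smad3, the other receptor SMAD of this branch, stood at 1.39 RPKM in HGP and 1.62 in NGP, a ratio of 0.857 (0.739 to 0.993). With halved counts the Smad3 interval was 0.693 to 1.06, so its lower value in HGP was not beyond counting error in that case. Smad3 made up 22.6% of the summed RPKM of both receptor SMADs in HGP and 25.5% in NGP, and the interval of the change in their ratio, 0.726 to 1.00, just included 1. Smad4, which encodes the shared partner of the receptor SMADs, stood at 8.51 RPKM in HGP and 8.02 in NGP (ratio 1.06, 0.984 to 1.15). Smad2 spans bases 76374651 to 76444034 of chromosome 18 (plus strand) and Smad3 bases 63554049 to 63665276 of chromosome 9 (minus strand) in GRCm39, each with 13 exon segments.

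Among the genes that damp the signal, Skil differed and Smad7 was not resolved. Skil encodes SnoN, a repressor that holds SMAD complexes inactive and is itself induced by SMAD signalling. It had the highest level of the 9 listed genes in both libraries, at 14.2 RPKM in HGP, from 6029 reads, and 9.92 RPKM in NGP, from 4246 reads. The HGP value was the higher, by a ratio of 1.43 (1.38 to 1.49), and its log2 difference of 0.50 was short of the 1.5-fold line at 0.58. Skil ranked 347 from the top of all measured features. Its relative Ski stood at 9.13 RPKM in HGP and 8.95 in NGP (ratio 1.02, 0.961 to 1.08), and the ratio of Skil to Ski differed by 1.41 (1.31 to 1.51). Skil spans bases 31149207 to 31176726 of chromosome 3 (GRCm39, plus strand), and no other listed exon overlaps it. Smad7 encodes the inhibitory SMAD that blocks activated type I receptors. It stood at 1.29 RPKM in HGP and 1.08 in NGP, a ratio of 1.20 (0.994 to 1.44) whose interval includes 1. Smad6, the inhibitory SMAD of the BMP branch, stood at 0.414 RPKM in HGP and 0.382 in NGP, with an interval of 0.736 to 1.60.

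In NGP, the order of levels from the top was Skil, Smad2, Acvr2a, Acvr1b, Inhba, Smad3, Smad7, Acvr2b and Inhbb. In HGP Inhba stood between Skil and Smad2, and the remaining genes kept the NGP order. No spread over samples exists with which to separate neighbours, and Acvr2a and Acvr1b in particular lay at 3.15 and 3.01 RPKM in HGP and at 3.18 and 2.98 in NGP. Inhba was 2.47 times the level of Acvr1b in HGP and 0.822 times in NGP.

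**Figure D3:**
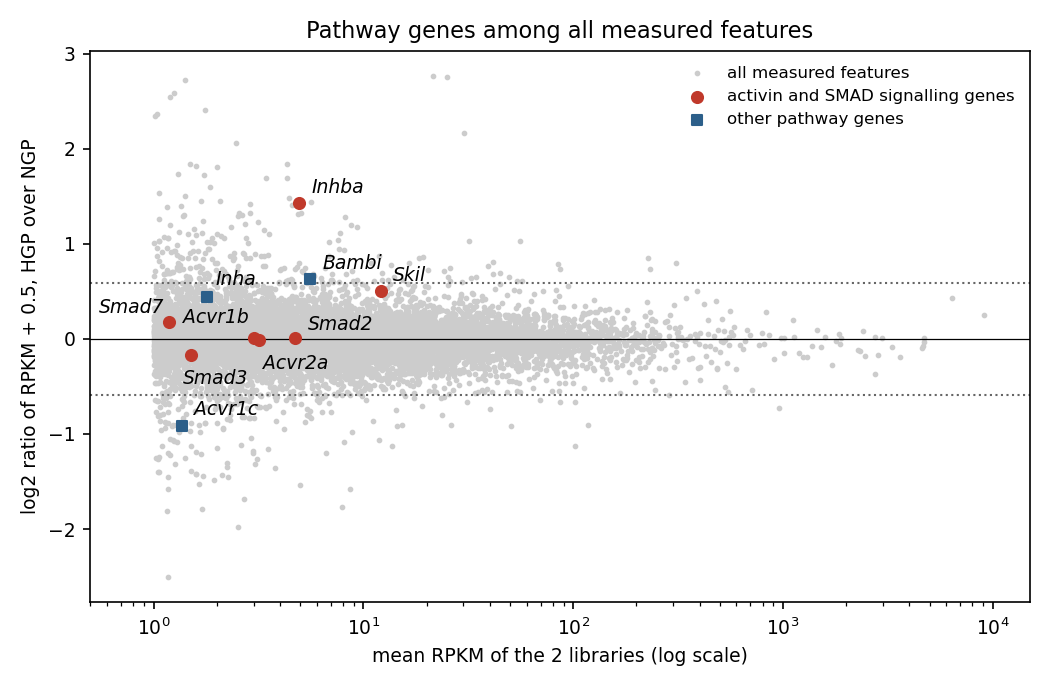
Log2 ratio of RPKM + 0.5, HGP over NGP, against mean RPKM on a log axis for all 13947 measured features (grey), with the 7 measured activin and SMAD genes (circles) and 3 further pathway genes (squares); dotted lines mark 1.5-fold. Inhba lies at 1.43 and Acvr1c at -0.91, while Acvr1b, Acvr2a and Smad2 lie on the zero line.

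The wider pathway was described with 6 lists of genes, written from textbook knowledge but with earlier results of these data known. They name 124 genes, of which 61 were measured, and 5 of these were at least 1.5-fold higher and 1 was lower by that much, beside 1.74% higher and 1.48% lower among all measured features. Among the 5 is Inhba, which was chosen for its higher value in HGP. Of the 61, 41 had a log2 ratio above 0 and 20 below, with a median of 0.07, against 7070 above and 6877 below and the median of 0.0028 for all measured features. Among the 7 measured genes of the ligand list the median was 0.02. That list holds family members that antagonize signalling as well, such as Inha. Tgfb1, the gene of transforming growth factor beta 1, stood at 5.69 RPKM in HGP and 4.22 in NGP (ratio 1.35, 1.24 to 1.47). Gdf11, an activin-like ligand, had the highest level of the ligands at 25.1 RPKM in HGP and 24.6 in NGP. The protease gene Bmp1, listed there by name only, had a ratio of 0.955, Lefty1 one of 0.920 and Tgfb3 one of 0.890, and all of their intervals included 1. Exons of Tgfb3 overlap predicted genes on the opposite strand.

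Among 8 measured receptors and latent binding proteins the median log2 ratio was 0.03, and Acvr1c alone passed 1.5-fold. Tgfbr1, the type I receptor gene for transforming growth factor beta, stood at 6.55 RPKM in HGP and 8.40 in NGP (ratio 0.780, 0.734 to 0.829). Its type II partner Tgfbr2 had 10 reads in HGP and 2 in NGP, so Tgfb1 and Tgfbr1 were measured in libraries with almost no Tgfbr2 reads. Acvr1, which encodes ALK2, had a ratio of 1.09 and Ltbp3, which encodes a latent binding protein and shares exon bases with an opposite-strand gene, one of 1.11.

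Among 6 measured extracellular and membrane inhibitors the median was -0.03, with 3 on either side of 0. Bambi, a receptor-like protein without a kinase that blocks signalling, stood at 6.88 RPKM in HGP and 4.28 in NGP (ratio 1.61, 1.48 to 1.74) and was the member past 1.5-fold. Dand5, a secreted antagonist of nodal, went the other way at 5.46 RPKM in HGP and 6.86 in NGP (ratio 0.796, 0.701 to 0.904). Its exons overlap Gadd45gip1 on the opposite strand, which stood at 20.7 RPKM in HGP and 21.2 in NGP. Igsf1 had a ratio of 0.832 (0.751 to 0.921) and the BMP antagonist gene Chrd one of 0.876. Tmeff1 stood at 1.13 and Fstl5 at 1.08. Fstl3, a follistatin relative that binds activin, was below the line at 0.449 RPKM in HGP and 0.639 in NGP, a ratio of 0.702 (0.476 to 1.03). Chrd and Fstl3 overlap Thpo and Prss57 on the opposite strand.

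None of the 6 measured SMAD genes and none of the 22 measured SMAD regulators passed 1.5-fold. Among all measured features 1.74% were that much higher and 1.48% that much lower. With such shares, none among this few genes does not set either list apart. The SMADs had a median of 0.03 and the regulators one of 0.06. After Skil, the largest ratios among regulators were those of Tgif1, a homeodomain corepressor, at 1.34 (1.22 to 1.47), and Ldlrad4, an inhibitor of receptor SMAD activation, at 1.27 (1.10 to 1.46). The lowest were Nedd4l, a ubiquitin ligase that targets receptor SMADs, at 0.846 (0.811 to 0.882), Wwp1 at 0.903 and Stub1 at 0.962. Exons of Tgif1, Ldlrad4, Nedd4l, Wwp1 and Stub1 overlap features on the opposite strand.

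**Figure D4:**
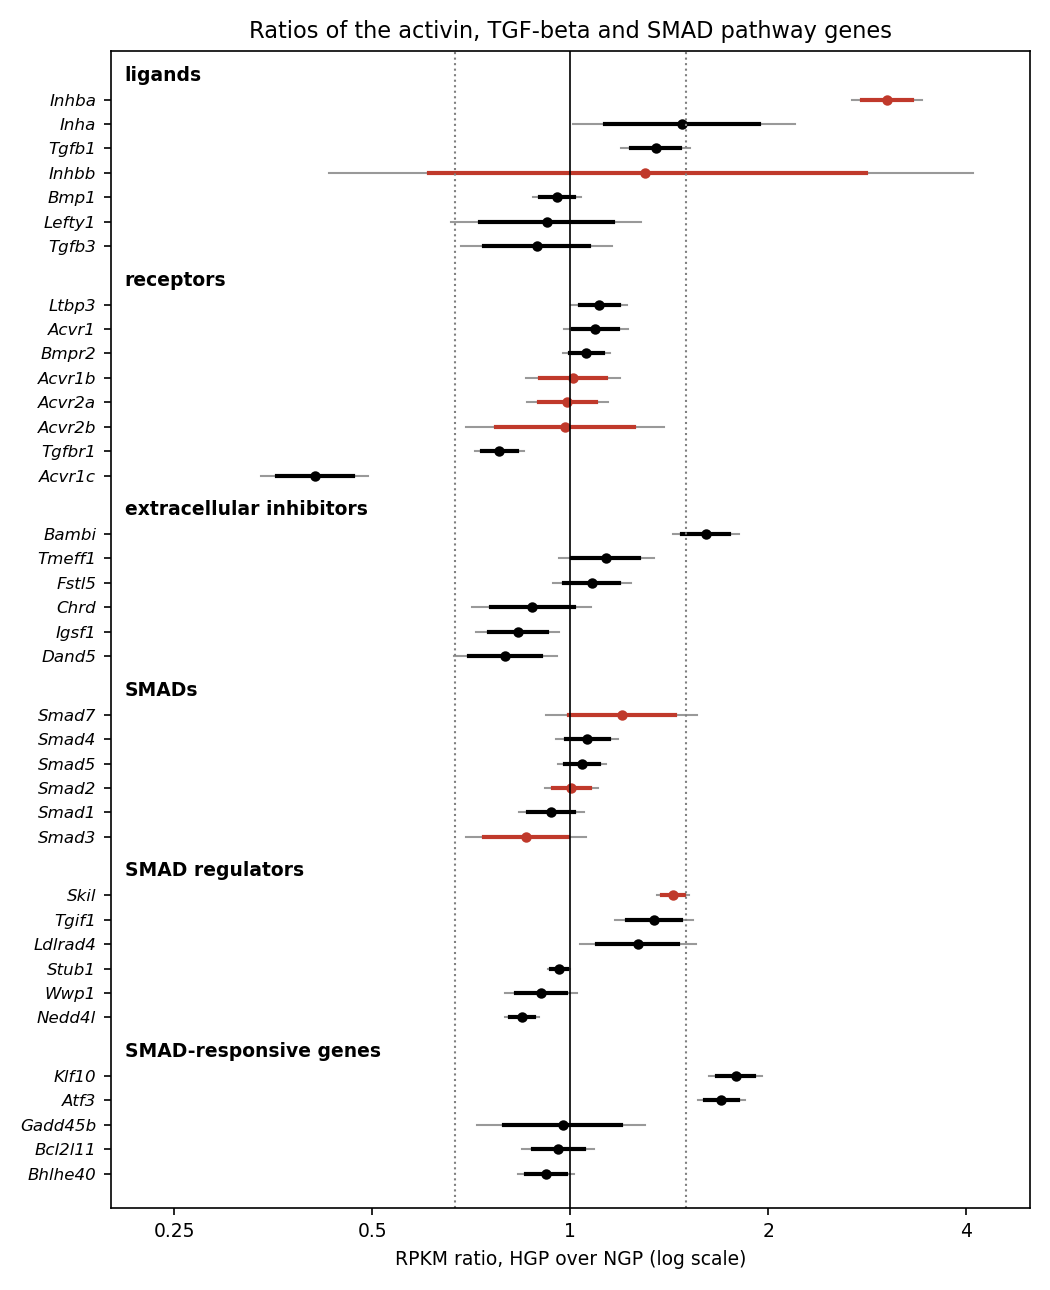
RPKM ratio of HGP over NGP on a log axis for the listed genes (red) and most of the highest and lowest genes of each list (black). Thick lines are exact 95% counting intervals, thin lines the same from halved counts, and dotted lines mark 1.5-fold up and down; Inhba at 3.03 and Acvr1c at 0.409 lie at the extremes.

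Genes listed as responding to SMAD signalling in other cells mostly had the higher value in HGP. That list was written with earlier results of these data known, so its counts are given as a description only. Of 18 measured genes 15 had a log2 ratio above 0 and 3 below, with a median of 0.24. Intervals lay above 1 for 12 of the 18 and below 1 for 1, beside 22.0% above and 22.3% below among all measured features. With halved counts the interval of Bhlhe40, the 1 below, included 1 (0.832 to 1.01). That of Snai2, among the 12 above, then included 1 as well (0.942 to 1.42). There were 4 at least 1.5-fold higher, among them Klf10, Atf3 and Bambi, and none was lower by that much, beside 1.74% higher and 1.48% lower among all measured features. With no filter on low values the median of the listed genes was 0.13. Klf10, first described as an early response gene of transforming growth factor beta, stood at 13.9 RPKM in HGP and 7.80 in NGP, a ratio of 1.79 (1.67 to 1.91). The stress-induced Atf3 stood at 32.5 RPKM in HGP and 19.2 in NGP, a ratio of 1.70 (1.60 to 1.80). Both respond to other signals as well, as do Cdkn1a at 1.37, Myc at 1.48 and Junb at 1.17. Bhlhe40 at 0.918, Bcl2l11 at 0.960 and Gadd45b at 0.973 were the 3 below 1. Exons of Bhlhe40, Cdkn1a and Junb overlap features on the opposite strand. The list does not move as a block. Pmepa1, a feedback target, stood at 0.424 RPKM in HGP and 0.396 in NGP (ratio 1.07, 0.787 to 1.45), Id3 had 14 reads in each library, and Ccn2 and Fn1 had none in either. Of the 18 genes 6 also stand in other lists, and the 12 that do not had a median of 0.20, with 9 above 0.

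The measured nuclear and non-coding RNAs, which can differ with RNA quality, were higher in HGP beside these genes. All 4 measured of 9 listed had a log2 ratio above 0, with a median of 0.38. Neat1 had a ratio of 1.23, Snhg1 one of 1.40 and Malat1 one of 1.04. Rn7sk had the largest at 3.20 (1.64 to 6.72), from 38 reads in HGP and 12 in NGP. Of those below 1 RPKM, Xist had 46 reads in HGP and 63 in NGP, Meg3 12 and 14, and Rpph1 0 and 6. Intervals of Xist and Meg3 included 1, as did that of Rpph1 with halved counts. Kcnq1ot1 had 1148 reads in HGP and 936 in NGP. The summed level of the list was 354.2 RPKM in HGP and 332.5 in NGP, most of it Malat1 at 318.1 in HGP and 305.6 in NGP. Rmrp was at 0 in both. Their part in the values of Inhba, Skil and the SMAD-responsive genes was not tested.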

How the data were processed

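The deposited table gives RPKM values made by the authors in 2 libraries, with each feature's exon coordinates and length. The tools were edgeR 3.12.1 and Trimmomatic 0.36 and the build was GRCm39, per the submitters' processing notes. The aligner, counter, annotation and strand setting were not given in the sources used here. Reads of genes that overlap on opposite strands therefore cannot be separated. RPKM times length gave whole reads for 100% of values within 0.01 read (largest deviation 3.55e-05). A median measured feature had 1950 reads over both libraries. Ratios are HGP over NGP RPKM with Clopper-Pearson intervals at 95%. Calls used log2(RPKM + 0.5), which understates differences of low genes, at 1.5-fold, for features whose mean RPKM reached 1. No p-value was computed, since each group has 1 library. Intervals of ratios between 2 genes are exact conditional odds ratio intervals. The steps were tested on simulated reads drawn independently of each other. Counting of both mates of a pair was not simulated, so that test does not cover the intervals under such counting. Members, gene lists and the rule for named genes were chosen with earlier results of these data known. That rule took the listed genes, every measured pathway gene past 1.5-fold, and otherwise the 3 highest and 3 lowest of each list, beside the 4 genes nearest to Inhba, and a few genes it names are left unreported. Genes outside it, such as Gdf11, Ski, Smad6, Tgfbr2, Fstl3, Inhbe, Inhbc, Pmepa1, Id3, Ccn2, Fn1, Cdkn1a, Myc and Junb, were chosen after their values were seen. Alternatives were other pseudocounts, scalings, filters and thresholds, leaving out short or overlapping features, and halved counts. Python 3.11.15, numpy 2.4.6, pandas 2.3.3 and scipy 1.17.1 were used.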

Additional observations from a re-analysis of the deposited data

How the results depend on the processing

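No paired analysis was possible because each group has 1 library. The log2 ratio of Inhba was 1.56 with a pseudocount of 0.1 and 1.29 with one of 1, and that of Acvr1c was -1.19 with 0.1 and -0.71 with 1. Over the 4 pseudocounts and scalings Skil ran from 0.48 to 0.52, Smad3 from -0.21 to -0.13 and Smad7 from 0.14 to 0.24. RPKM already sets both libraries to the same total, and median-of-ratios scaling moved plain log2 ratios by 0.014. With a pseudocount of 1, 136 features were lower and 0 inhibitor genes higher by 1.5-fold. At a mean RPKM of at least 5, Inhba and Acvr1c fall out, which leaves 0 listed genes, 0 ligands higher and 0 receptors lower by 1.5-fold. Intervals then lay above 1 for 1 listed gene and below 1 for 0, and above 1 for 1963 features, with 67 features higher and 51 lower by 1.5-fold. The medians were 0.16 for the inhibitors and 0.47 for the SMAD-responsive genes. With no filter 725 features were higher and 591 lower, and the median of the SMAD-responsive genes was 0.13. Over its 9 alternatives that median ran from 0.13 to 0.47. At 2-fold 75 were higher and 51 lower, and Inhba remained past the threshold on that scale, with 0 receptors lower and 0 inhibitors and 0 SMAD-responsive genes higher. Without features under 300 bases 125 were higher and 100 lower. Without features whose exons overlap the opposite strand, Acvr1c is left out, so 0 receptors were lower, 1959 features had intervals below 1 and the ligand median was 0.21. With halved counts 0 listed genes had an interval below 1. Leaving out the genes of other lists was chosen after seeing the data. Depth limits Inhbb, Acvr2b and Smad7, whose intervals include 1. The intervals of Acvr1b, Acvr2a and Smad2 include 1 as well, as does that of Smad3 with halved counts.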

Other observations

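The BMP branch of the same superfamily signals through SMAD1, SMAD5 and SMAD9. Its genes Bmpr1a, Bmpr2, Smad1 and Smad5 were close to level between the libraries. Intervals of Id4, Bmpr1b and Acvr1 left out 1, but all of them included it with halved counts. Bmpr1a, a type I BMP receptor gene, stood at 7.79 RPKM in HGP and 7.54 in NGP (ratio 1.03, 0.973 to 1.10), and Bmpr2, the type II receptor gene, at 3.01 in HGP and 2.85 in NGP (ratio 1.06, 0.998 to 1.12). Smad1 had a ratio of 0.935 (0.863 to 1.01) and Smad5 one of 1.04 (0.982 to 1.10). Bmpr1a shares exon bases with Gm17110 on the opposite strand and Smad5 with Gm55294 on its own strand. Smad9 stood at 0.946 RPKM in HGP and 0.996 in NGP. BMP ligand genes were scarce, with 38 reads in HGP and 54 in NGP for Bmp2, and 2 in HGP and 0 in NGP for Bmp4. The BMP-responsive gene Id2 had a ratio of 1.14 (0.908 to 1.43), and Id1 had 32 reads in HGP and 24 in NGP. Id4, of the same family, had 42 reads in HGP and 64 in NGP, a ratio of 0.663 (0.438 to 0.993), or 0.363 to 1.19 with halved counts. The type I receptor gene Bmpr1b had 2 reads in HGP and 12 in NGP, a ratio of 0.168 (0.0183 to 0.756), or 0.00366 to 1.39 with halved counts. Acvr1, another type I receptor gene of this branch, had a ratio of 1.09 (1.01 to 1.18), or 0.977 to 1.22 with halved counts.

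Acvr1c and Tgfbr1, which encode type I receptors that use the same receptor SMADs as Acvr1b, were both lower in HGP, at ratios of 0.409 and 0.780, while Acvr1b stood at 1.01. Whether this would recur in further cultures was not tested, as each group has 1 library.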
